A study of Mus musculus with 36 samples.

Results

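Wild-type (WT) mouse microglia that had been in interferon-beta (IFN-b) for 24 h were compared with WT microglia that had been in it for 6 h. The arrays were 4 of the 36 in the series, 2 for each time. They were the WT arrays deposited in the same run as the microglia of the C61A genotype, the last 12 arrays of the series, and were chosen by genotype, time and place in the series, not by any measured value. No untreated array entered this comparison, so each change from 6 h to 24 h lies between 2 times of treatment and is not a response to interferon. Untreated arrays served only to choose the gene lists of run 1 given at the end and in 1 kind of alternative fit. The full series also holds Usp18 knockout microglia, microglia with the C61A form of Usp18 and the microglial line BV-2 under control or Usp18 siRNA, each at 0 h, 6 h and 24 h of IFN-b. Both groups used here were primary microglia of WT mice, grown in serum-containing medium and given IFN-b at 500 U/ml, and the labels call the 2 arrays of each group biological replicates. No source used here gives the strain, sex or age of the mice or how the microglia were prepared. A further 4 WT arrays at the same times and dose, deposited earlier in the series with the same titles, served as a second set of cultures. The earlier set is called run 1 and the set described here run 2, and nothing in the labels says what separated them.

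Microglia are the resident macrophages of the brain. Type I interferons such as IFN-b bind the receptor pair Ifnar1 and Ifnar2, whose kinases Jak1 and Tyk2 phosphorylate Stat2. Together with Irf9 it is part of a complex that binds the interferon-stimulated response element (ISRE) in the promoters of interferon-stimulated genes. The products of those genes block viral replication, attract leukocytes, raise antigen presentation and also shut the signal down: Usp18 removes the ubiquitin-like modifier Isg15 from proteins and separately blocks signalling at Ifnar2, while Socs proteins inhibit the kinases.

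Promoter sequences of genes that the results turn on were searched for the letters of that element. They are RefSeq sequences of mouse build GRCm38.p6, each running from 250 bases before to 50 bases after the annotated start, printed 5′ to 3′ along the gene's own strand. Capitals mark the ISRE letters, GAAA with any 2 bases and then GAAA, searched on both strands, so that a match on the other strand reads TTTC, any 2 bases and TTTC. Ifit1 and Gbp2 stand for the antiviral effectors and the interferon-inducible GTPases, Cxcl10 for the chemokines, and Slfn4 is the gene with the largest rise between the times.
Ifit1, chr19:34640639-34640938, plus strand: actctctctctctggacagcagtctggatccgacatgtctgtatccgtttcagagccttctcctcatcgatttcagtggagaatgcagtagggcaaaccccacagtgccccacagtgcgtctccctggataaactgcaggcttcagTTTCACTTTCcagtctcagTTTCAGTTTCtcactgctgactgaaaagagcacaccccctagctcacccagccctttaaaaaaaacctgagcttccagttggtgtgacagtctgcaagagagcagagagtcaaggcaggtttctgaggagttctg
Gbp2, chr3:142620413-142620712, plus strand: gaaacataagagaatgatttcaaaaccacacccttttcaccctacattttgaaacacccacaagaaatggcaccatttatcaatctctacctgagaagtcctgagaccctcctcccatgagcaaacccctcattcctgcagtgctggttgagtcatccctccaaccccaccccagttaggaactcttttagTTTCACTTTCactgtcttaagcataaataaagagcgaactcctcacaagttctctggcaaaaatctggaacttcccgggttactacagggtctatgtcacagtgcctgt
Cxcl10, chr5:92348840-92349139, minus strand: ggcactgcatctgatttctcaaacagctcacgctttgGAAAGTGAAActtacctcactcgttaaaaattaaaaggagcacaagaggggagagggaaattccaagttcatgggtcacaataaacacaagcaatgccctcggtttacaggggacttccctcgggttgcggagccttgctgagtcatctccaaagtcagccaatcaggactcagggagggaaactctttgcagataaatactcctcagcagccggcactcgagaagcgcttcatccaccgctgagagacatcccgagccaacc
Slfn4, chr11:83174936-83175235, plus strand: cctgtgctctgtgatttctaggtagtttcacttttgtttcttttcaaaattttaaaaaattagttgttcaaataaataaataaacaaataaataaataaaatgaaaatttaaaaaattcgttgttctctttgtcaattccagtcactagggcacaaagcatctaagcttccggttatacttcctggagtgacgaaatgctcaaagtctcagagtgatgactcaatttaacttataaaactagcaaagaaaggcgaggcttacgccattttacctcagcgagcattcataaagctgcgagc
Ifit1 holds the letters at 104 and 85 bases before its start, Gbp2 at 59 and Cxcl10 at 213, and the printed Slfn4 window holds none. Of all 32851 promoters in the table, 3.44% hold the ISRE letters. Of the 6088 tested genes matched to the table by symbol, 250 (4.11%) held the letters in at least 1 promoter. Among them were 6 of 7 interferon-inducible GTPases, 9 of 15 antiviral effectors, 3 of 11 class I genes, 1 of 10 chemokines (Cxcl10) and 0 of 7 Schlafen and Ms4a genes. Of the genes that rose between 6 h and 24 h in the test described next, 19 were matched and 1 held the letters (Skp2), and of those that fell, 12 were matched and 0 held them. A match is a run of letters and not a measured binding site. The search took only these exact letters in this window, so 0 matches does not show that a gene lacks the element.

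Between 6 h and 24 h the measured changes of run 2 were small for most genes, and few passed a threshold. With 2 arrays a side, a gene that did not pass is not shown to have stayed the same. Over the 7408 genes tested the median change was 0.02 log2 units with an SD over genes of 0.327, and 74 genes (0.999%) differed by at least 1 log2 unit, 36 of them higher and 38 lower at 24 h. Both 24 h arrays lay above both 6 h arrays for 1790 genes (24.2%) and below them for 1365 (18.4%). In limma's moderated test across the 8 IFN-treated WT arrays of both runs, with Benjamini-Hochberg adjustment over all genes, 0 genes of run 2 (0%) passed an adjusted p of 0.05, the lowest adjusted p being 0.165. An unadjusted p under 0.05 was found for 867 genes (11.7%), 524 of them higher and 343 lower at 24 h. Counts of list members at that unadjusted p are to be set against these. Expression values are on the log2 scale and set the times against each other only within a gene, since probe sets differ in brightness.

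Arrays that share a replicate number moved together: over genes, the difference between replicates 1 and 2 at 6 h correlated with that at 24 h at 0.513 in run 2 and at 0.667 in run 1. The number was therefore taken to mark a culture sampled at both times. The labels do not say what arrays of the same number share, and "culture" below stands for the replicate number within a run. In run 2 the sex-linked transcript Xist did not split by number. With culture as a block, 40 genes of run 2 (0.54%) passed, 22 higher (0.297%) and 18 lower (0.243%), the lowest adjusted p being 0.00450, and 1412 genes (19.1%) had an unadjusted p under 0.05. With culture as a random effect 38 passed (0.513%), 26 of them among the 40. This count depends on the arrays that lend the estimate of spread. With all 16 IFN-treated microglia arrays in the blocked fit 0 genes passed, and with the C61A 6 h array of replicate 2 left out of that fit 4 did, all among the 40. In the rest of the text "rose" and "fell" in run 2 mean past the threshold in the blocked limma fit, errors are its standard errors (SE), and genes are named by how they stand there. Apart from the 12 of smallest unadjusted p, those singled out of the 40 were chosen after their values were seen.

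Slfn4, a Schlafen family gene induced by interferon in mouse myeloid cells, rose most. It read 8.12 and 7.99 on the 6 h arrays and 10.76 and 10.24 on the 24 h arrays, a rise of 2.45 ± 0.158 log2 units (adjusted p = 0.00450). Slfn1, of the same family, went from 4.71 and 5.52 to 6.23 and 6.70 (1.35 ± 0.164, adjusted p = 0.0442). Ms4a4c, which codes for a membrane protein with several spanning segments, went from 10.46 and 10.08 to 11.45 and 11.59 (1.25 ± 0.170, adjusted p = 0.0442). Each of these had both 24 h arrays above both 6 h arrays. Of the 8 Schlafen and Ms4a genes tested 3 rose, the 3 just named, and 0 fell, with a list median of 0.57 against 0.02 for all genes. For 7 of the 8 (87.5%) both 24 h arrays lay above both 6 h arrays, against 24.2% of all genes. The exception was Slfn2, at 11.62 and 11.70 and then 11.57 and 11.80, a difference of 0.02. Ms4a6b, Ms4a6c, Ms4a6d and Ms4a7 were 0.38 to 0.60 higher and did not pass.

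The other genes that rose included mediators of inflammation. Il1b, the precursor of the cytokine interleukin-1 beta, stood at 7.32 and 6.35 at 6 h and at 8.50 and 8.61 at 24 h, a rise of 1.72 ± 0.243. Ptges, the synthase that makes prostaglandin E from the cyclooxygenase product, went from 6.15 and 5.60 to 7.07 and 6.63 (0.97 ± 0.146). Clec4e, the receptor Mincle for mycobacterial glycolipid and for a protein of dead cells, went from 9.0 and 9.30 to 10.11 and 10.71 (1.26 ± 0.171). The stress-inducible chaperone gene Hspa1a went from 5.71 and 6.24 to 6.97 and 7.52 (1.27 ± 0.151). All 4 had adjusted p between 0.0442 and 0.0453 and times that did not overlap. In run 1 all 4 fell between the times with culture as a block, as given further on. Also among those that rose were Spn, the sialophorin CD43, from 6.55 and 6.45 to 7.80 and 7.92 (1.35 ± 0.165), the chemokine receptor gene Ccr3 from 6.28 and 5.46 to 7.34 and 7.40 (1.5 ± 0.220), and Klra2, of the Ly49 receptor family, from 6.65 and 6.79 to 7.88 and 8.10 (1.27 ± 0.141). Flvcr2, a transporter of the Flvcr family, was the 1 gene of the 40 whose times overlapped, at 10.06 and 8.31 and then 11.39 and 9.80, with replicate 1 above replicate 2 at both times and a rise of 1.41 ± 0.182.

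**Figure D1:**
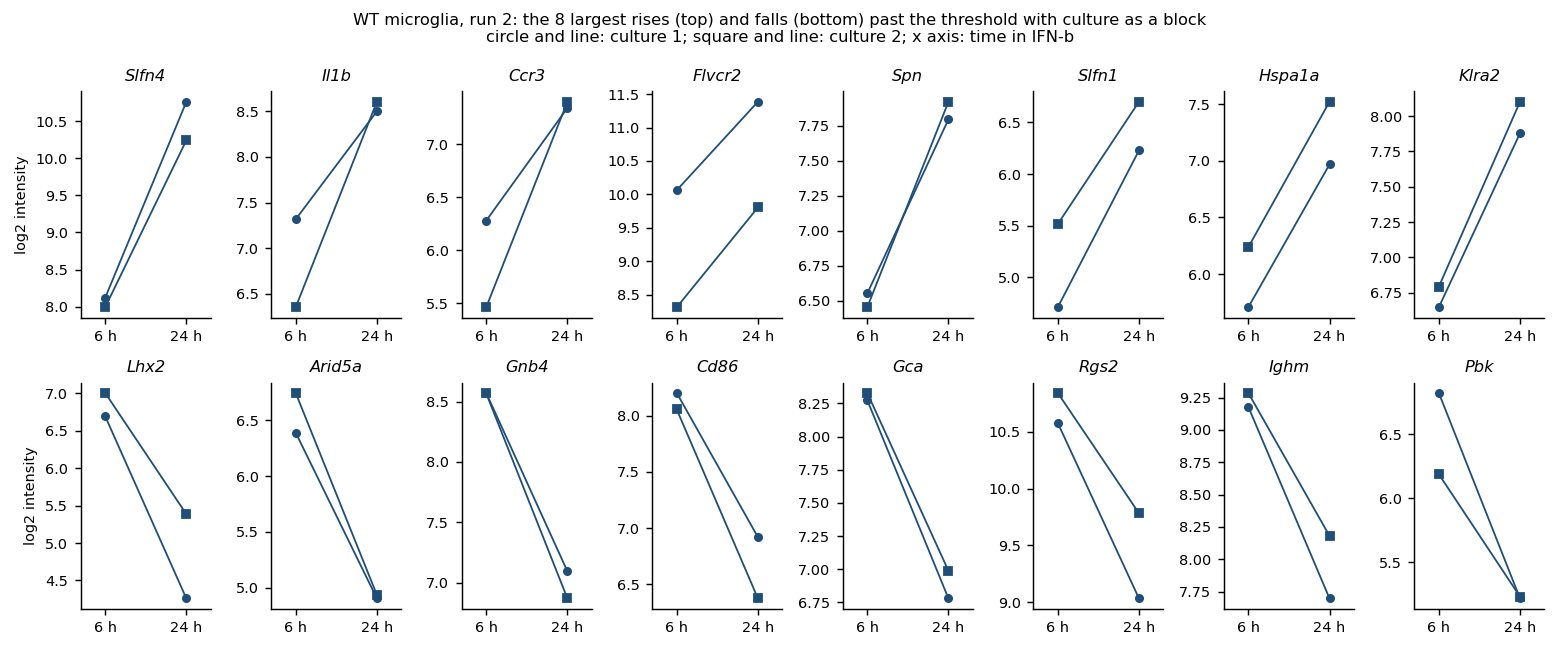
Expression (log2, vertical axis) on the 4 run 2 arrays at 6 h and 24 h of IFN-b (horizontal axis) for the 8 genes that rose most (top) and the 8 that fell most (bottom), with 1 panel a gene and 1 line a culture (circles replicate 1, squares replicate 2). In every panel both lines run the same way, and in Flvcr2 the cultures lie apart at both times.

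Among the 18 genes that fell, Lhx2 had the largest change. Lhx2, a LIM homeodomain factor of forebrain and hair follicle development, read 6.69 and 7.0 at 6 h and 4.26 and 5.39 at 24 h, and fell by 2.03 ± 0.206 (adjusted p = 0.0360). Arid5a, an RNA-binding protein that stabilises Il6 messenger RNA, read 6.39 and 6.74 and then 4.91 and 4.94, and fell by 1.64 ± 0.153 (adjusted p = 0.0318). Cd86, the co-stimulatory ligand for T cells, read 8.20 and 8.06 and then 6.92 and 6.37, and fell by 1.48 ± 0.165 (adjusted p = 0.0360). In each of these both 24 h arrays were the lower. Others that fell were Gnb4, a G protein beta subunit, from 8.57 and 8.57 to 7.09 and 6.87, Rgs2, which speeds the switching off of G proteins, from 10.58 and 10.84 to 9.03 and 9.78, and Gca, the calcium-binding protein grancalcin, from 8.28 and 8.33 to 6.78 and 6.99. Aim2, the cytosolic DNA sensor that starts an inflammasome, fell by 1.15 ± 0.166, from 7.53 and 7.61 to 6.56 and 6.29. Usp12, another ubiquitin-specific protease, fell by 1.10 ± 0.159, and Mllt3, a subunit of a transcription elongation complex, by 0.97 ± 0.142. Ighm, the heavy chain of immunoglobulin M, read 9.18 and 9.29 and then 7.70 and 8.18, while the lymphocyte markers on the array (4 of 5 listed) had a mean of 3.56 to 3.79 and 0 of them above an array's median. What part other cells have in that value was not tested.

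Cell division genes leaned lower. Of 18 tested, 1 fell and 0 rose, the median was -0.36, and in 9 of the 18 (50%) both 24 h arrays lay below both 6 h arrays, against 18.4% of all genes. Rrm2, the subunit of ribonucleotide reductase that sets the supply of deoxynucleotides, was the 1 that fell, from 6.78 and 6.01 to 5.69 and 5.03 (-1.03 ± 0.142). Mki67, the proliferation antigen Ki-67, was at 6.05 and 5.52 and then 5.29 and 4.42, and Top2a, which untangles DNA at mitosis, at 7.19 and 6.69 and then 6.35 and 5.74. Their differences of -0.94 and -0.90 had adjusted p of 0.0610 and 0.0651. The replicative helicase genes Mcm3 and Mcm4 differed by 0.25 and 0.07, while Mcm2, Mcm5 and Mcm6 differed by -0.25, -0.08 and -0.54. Further kept probe sets gave -0.38 to 0.18 for Mcm3 and -0.02 for Mcm4. Pcna differed by 0.00. Outside the list, Cenpa, the histone of centromeres, fell by 1.17 ± 0.178 and the mitotic kinase gene Pbk by 1.28 ± 0.189, and Skp2, which marks a cell cycle inhibitor for destruction, rose by 1.03 ± 0.148. In RNA of whole cultures, fewer cells of a kind and less RNA per cell cannot be told apart.

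Genes of the interferon signal itself did not pass in either direction. Usp18 read 12.95 and 12.82 at 6 h and 12.67 and 12.69 at 24 h, a difference of -0.21 ± 0.152 (adjusted p = 0.503, and 0.722 without the block). Both 24 h arrays lay below both 6 h arrays, with differences of -0.29 in replicate 1 and -0.14 in replicate 2. Of the other Isg15 pathway genes, the activating enzyme gene Uba7 differed by 0.10, the conjugating enzyme gene Ube2l6 by 0.40 and the ligase gene Trim25 by -0.08. Among 13 receptor, Jak-Stat and interferon regulatory factor genes 0 passed, and the median was 0.13. Ifnar1 went from 6.57 and 7.16 to 7.65 and 7.0, and Ifnar2 from 8.84 and 8.98 to 9.31 and 9.09. Irf7, which amplifies type I interferon production, went from 10.70 and 10.19 to 10.53 and 10.69. Stat3 had the largest difference of the 13, from 9.33 and 9.55 to 8.72 and 8.71 (-0.72, adjusted p = 0.0749). Among 9 feedback inhibitors 0 passed, and 2 were lower at an unadjusted p under 0.05 without the block. Socs1 was at 7.26 and 6.28 and then 5.92 and 6.00 (-0.81, adjusted p = 0.138), and Socs3 at 9.81 and 9.59 and then 9.75 and 9.62 (-0.02).

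No antiviral effector passed in run 2. Over the 22 tested the median was -0.06, 4 were higher and 3 lower at an unadjusted p under 0.05 without the block, 5 (22.7%) were higher and 8 (36.4%) lower without overlap against 24.2% and 18.4% of all genes, and the differences ran from -0.56 to 1.07. Ifit1, which binds viral RNA that lacks the host's cap marks, gave the lowest, from 13.005 and 12.95 to 12.53 and 12.29 (-0.56, adjusted p = 0.106). Oas3, a sensor of double-stranded RNA that switches on the nuclease RNase L, gave the highest, from 8.27 and 7.56 to 8.84 and 9.14 (1.07, adjusted p = 0.0852). Rsad2, the radical enzyme viperin, read 13.56 and 13.63 and then 13.53 and 13.38, and the dynamin-like Mx1 12.05 and 11.84 and then 12.29 and 11.60. The largest value on each run 2 array lay between 13.94 and 14.02. Bst2, which tethers budding virus to the cell, was 0.80 higher and Ifitm3, which blocks virus entry, 0.67 higher, with adjusted p of 0.0923 and 0.0790. Among 10 nucleic acid sensors 1 fell, Aim2, and the RNA sensor gene Ifih1 read 12.34 and 12.33 and then 11.65 and 11.38 (-0.82, adjusted p = 0.0651). Of 9 interferon-inducible GTPases, which act on vacuoles of intracellular pathogens, 0 passed (3 lower at an unadjusted p under 0.05 without the block), 5 (55.6%) were lower and 0 higher without overlap, and the median was -0.27. Iigp1 was at 11.82 and 11.62 and then 10.98 and 10.87 (-0.79, adjusted p = 0.0651), while Gbp3 was at 12.07 and 11.86 and then 12.07 and 11.92.

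Of 16 chemokine genes 1 rose and 0 fell, with a median of 0.08. Ccl5, which draws T cells and monocytes, read 10.96 and 9.88 and then 11.92 and 11.16 (1.12 ± 0.159, adjusted p = 0.0442). Cxcl10, which draws T cells through Cxcr3, read 12.41 and 12.34 and then 11.44 and 11.58 (-0.87, adjusted p = 0.117), and the related Cxcl9 7.73 and 6.26 and then 6.35 and 5.53 (-1.06, adjusted p = 0.0650). The neutrophil chemokine Cxcl2 lay on the other side, at 8.08 and 8.17 and then 8.81 and 9.41 (0.98, adjusted p = 0.0834). The monocyte chemokine Ccl2 read 11.88 and 11.23 and then 11.94 and 11.84, and Ccl3 13.01 and 12.65 and then 13.08 and 13.03. In Ccl3 both 24 h arrays were the higher, and in Ccl2 the times overlapped. Of 14 inflammatory cytokines, mediators and co-stimulators 1 rose (Il1b) and 1 fell (Cd86), while 7 (50%) were lower and 3 (21.4%) higher without overlap, against 18.4% and 24.2% of all genes. Tnf stood at 10.22 and 9.88 and then 10.15 and 10.07, a difference of 0.06. Acod1, the enzyme that makes itaconate, stood at 13.04 and 13.02 and then 12.84 and 12.77. The interleukin-1 receptor antagonist Il1rn read 9.73 and 8.67 and then 10.35 and 10.10 (1.03, adjusted p = 0.0745), and Il6 read 9.21 and 8.30 and then 7.59 and 8.03 (-0.94, adjusted p = 0.216).

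Class I antigen presentation leaned higher. Of 12 genes 1 rose and 0 fell, the median was 0.37, and for 7 of the 12 (58.3%) both 24 h arrays lay above both 6 h arrays, against 24.2% of all genes. H2-K1, the classical heavy chain, read 12.30 and 11.76 and then 13.35 and 12.97 (1.13 ± 0.155, adjusted p = 0.0442). The other classical heavy chain gene H2-D1 was at 12.57 and 12.17 and then 13.32 and 13.03 (0.81, adjusted p = 0.0645), and the non-classical H2-M3 at 9.13 and 8.74 and then 10.13 and 9.51 (0.88, adjusted p = 0.0557). Heavy chains are close in sequence, so probe sets of this family may read each other's transcripts. H2-T24, a non-classical gene outside the list, rose from 7.82 and 7.19 to 8.90 and 8.23 (1.06 ± 0.141). The light chain gene B2m differed by 0.27, the peptide transporter genes Tap1 and Tap2 by 0.14 and 0.09, and the immunoproteasome genes Psmb8, Psmb9 and Psmb10 by 0.43, 0.15 and -0.03. Of the class II list 3 genes were bright enough to test and 0 passed.

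**Figure D2:**
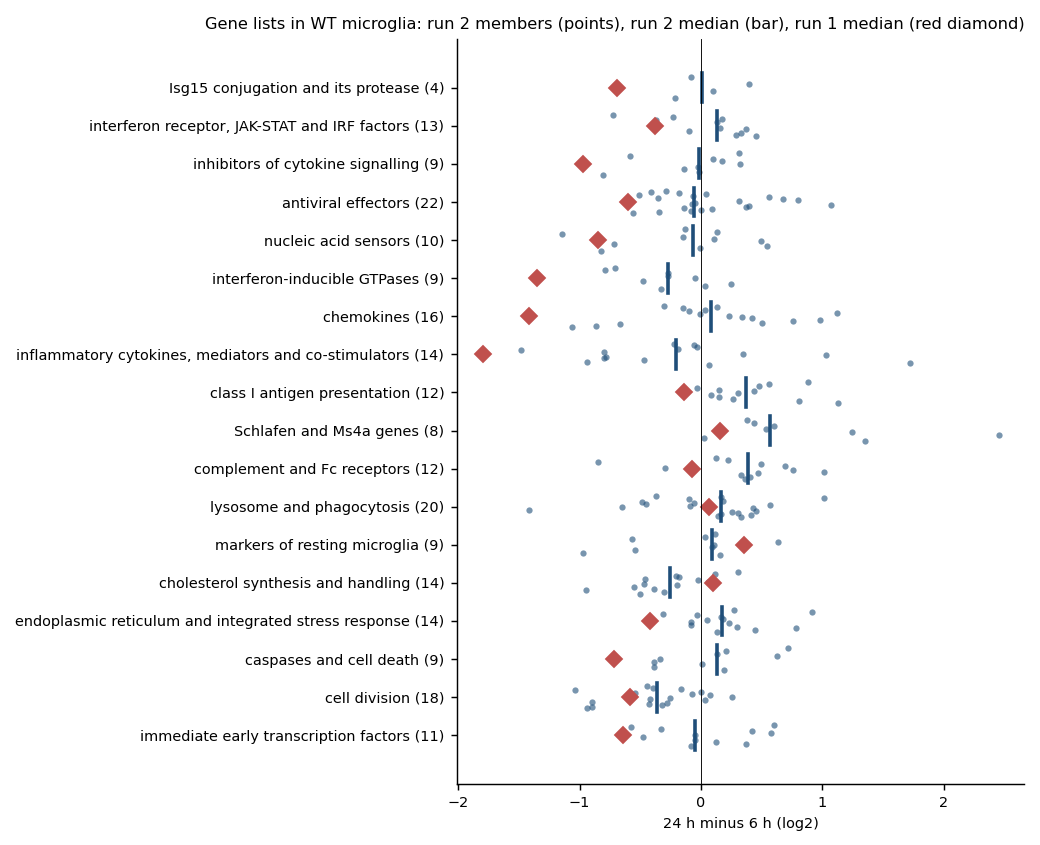
Change from 6 h to 24 h (log2, horizontal axis) of each tested gene of 18 gene lists in run 2 (points), 1 row per list with its number of genes, with the run 2 median as a bar and the run 1 median as a diamond. List medians of run 2 lie between -0.36 (cell division) and 0.57 (Schlafen and Ms4a genes), those of run 1 between -1.80 (inflammatory genes) and 0.35 (resting microglia markers). The 0.35 is the value of Tmem119, which read below the array median on every run 1 array.

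Among genes of the microglial state, Lgals3bp alone passed. Of 9 markers of resting microglia 0 passed, 2 were lower at an unadjusted p under 0.05 without the block, and the median was 0.09. That median is the value of Gpr34, which read below the array median on every run 2 array. P2ry12, the receptor through which microglia sense ADP, was at 7.17 and 5.69 and then 6.05 and 4.86 (-0.97, adjusted p = 0.0674), lower within each culture though the times overlapped. Tmem119 was at 7.19 and 7.28 and then 6.61 and 6.79 (-0.54), and the fractalkine receptor gene Cx3cr1 at 8.91 and 9.47 and then 9.11 and 9.59. Of 12 complement and Fc receptor genes 0 passed, and the median was 0.38. At an unadjusted p under 0.05 without the block 6 were higher and 1 lower, against 524 and 343 of the 7408 genes. Without overlap 7 (58.3%) were higher and 1 (8.33%) lower, against 24.2% and 18.4% of all genes. Cfb, the protease of the alternative complement pathway, was at 7.50 and 7.39 and then 8.74 and 8.17 (1.01, adjusted p = 0.0595), and Fcgr1, the high-affinity receptor for immunoglobulin G, at 11.41 and 10.96 and then 11.998 and 11.76 (0.69, adjusted p = 0.0832). Fcgr3 lay on the other side, at 7.91 and 8.40 and then 7.05 and 7.57 (-0.84, adjusted p = 0.0557). Of 20 lysosome and phagocytosis genes 1 rose, Lgals3bp, a secreted glycoprotein that binds galectins, from 10.76 and 10.21 to 11.88 and 11.11 (1.02 ± 0.156), and the median was 0.16. Trem2, the lipid receptor of microglia, was at 9.32 and 9.12 and then 8.55 and 8.59 (-0.65, adjusted p = 0.0841).

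Microglia markers read high on all 4 arrays, but markers of other cells were also found. Of the 11 listed microglia markers 10 are on the array. Their mean was 9.75 to 10.06 on the 4 arrays, and 9 or 10 of them lay above each array's median. The 2 cultures differed in astrocyte markers, all 9 of which are on the array. Their mean was 5.84 at 6 h and 5.93 at 24 h in replicate 1, and 8.39 and 7.65 in replicate 2. Above the array median lay 5 and 6 of them in replicate 1, and 7 at both times in replicate 2. Aqp4, the water channel of astrocytes, read 3.08 and 3.52 in replicate 1 and 10.36 and 9.77 in replicate 2, and the filament gene Gfap 4.12 and 3.89 against 7.77 and 6.29. This difference lies between cultures and not between times, and the block for culture takes up its constant part. Within replicate 2 the astrocyte mean was lower at 24 h, and its part in the changes above was not tested. The complement inhibitor gene Serping1 was at 3.97 and 4.12 in replicate 1 and 9.13 and 8.37 in replicate 2, split by culture like Aqp4. Oligodendrocyte markers (7 of 8 on the array) averaged 6.18 to 6.68, with 4 or 5 above each array's median. Neuron markers (6 of 6) averaged 3.57 to 4.05, with 0 above it. Fibroblast and endothelial markers (8 of 8) averaged 4.67 to 5.22, with 1 to 4 above it. Monocyte and granulocyte markers (4 of 5) averaged 4.19 to 4.34, with 0 or 1 above it. Whole arrays correlated at 0.947 to 0.975 within run 2 and at 0.792 to 0.882 between the runs.

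**Figure D3:**
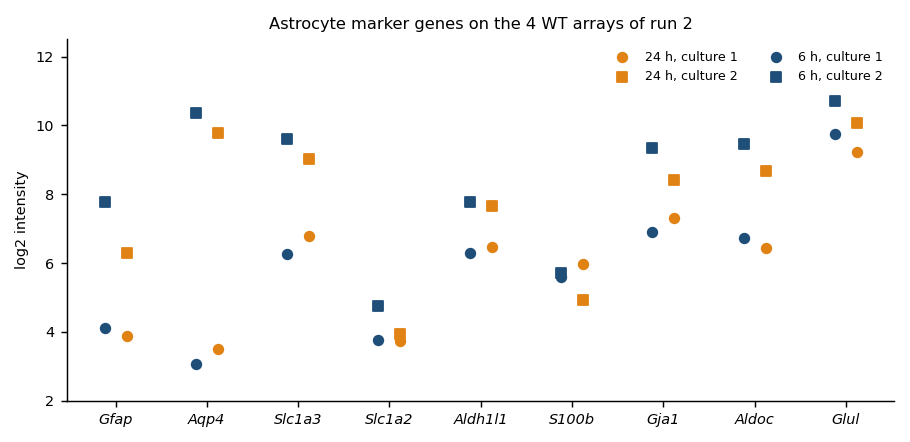
Expression (log2, vertical axis) of astrocyte marker genes on the run 2 arrays, with colour for the time and circles or squares for replicate 1 or 2. Aqp4 lies at 3.08 and 3.52 in replicate 1 and at 10.36 and 9.77 in replicate 2.

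The same comparison in run 1, on arrays that run 2 does not share, gave another picture. There 1509 genes passed without the block (20.4%), 809 higher (10.9%) and 700 lower (9.45%), and 737 genes (9.95%) differed by at least 1 log2 unit, with an SD over genes of 0.647 against 0.327 in run 2. Culture 1 and culture 2 gave the same sign of change for 83.8% of genes in run 1 and for 58.8% in run 2, and their changes correlated over genes at 0.879 and at 0.334. Over the 7408 genes the changes of run 2 and run 1 correlated at 0.297, a description across genes that share arrays. The difference between the runs was tested in the same limma fit. It passed for 251 genes (3.39%), 156 with the higher change in run 2 (2.11%) and 95 with the lower (1.28%), and with the block for 813 (11%). The count rested on every array of the 8: without 1 of them it was 32 (without the run 1 24 h array of replicate 2) to 190 (without the run 1 6 h array of replicate 1), and the 1509 of run 1 became 546 to 1453, while run 2 gave 0 each time. Marker levels differed between the runs as well. The microglia mean was 9.75 to 10.06 in run 2 and 10.66 to 10.84 in run 1, the astrocyte mean 5.84 to 8.39 and 5.09 to 5.64, and the fibroblast and endothelial mean 4.67 to 5.22 and 3.98 to 4.14. The part of these other cells in the differences was not tested. Run and any difference in culture, handling or array processing between the runs cannot be told apart.

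**Figure D4:**
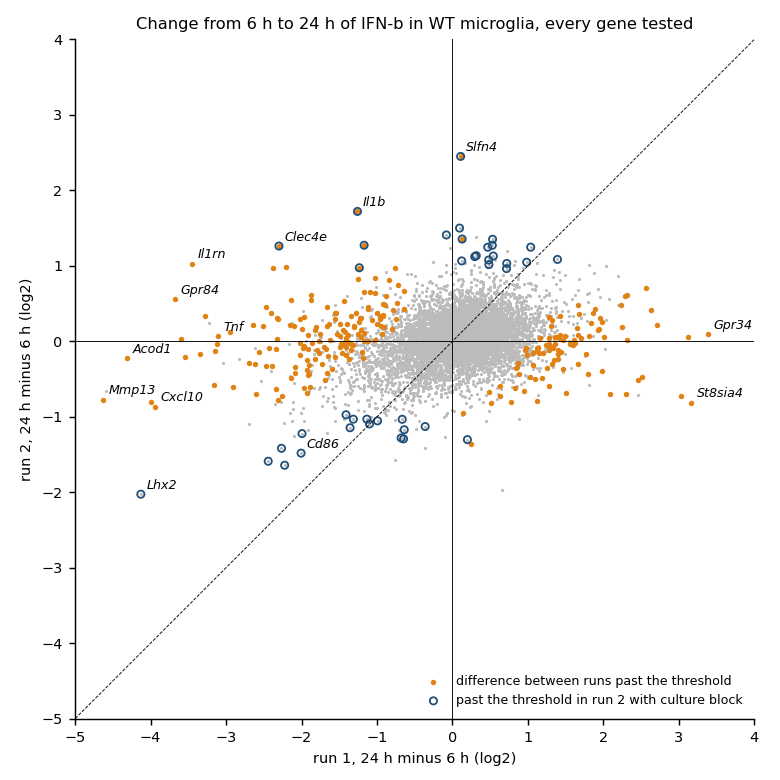
Change from 6 h to 24 h in run 1 (log2, horizontal axis) against that in run 2 (log2, vertical axis), 1 point per gene, with the 251 genes whose change differed between the runs in orange and the 40 that passed in run 2 ringed. Run 2 spans -2.03 (Lhx2) to 2.45 (Slfn4), while Mmp13, Cxcl10 and Acod1 lie at -4.63, -3.95 and -4.31 in run 1.

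The 4 largest differences in favour of run 2 were those of Il1rn, Gpr84, Acod1 and Mmp13. Each of these, and Tnf, fell in run 1 and did not pass in run 2. Acod1 read 12.98 and 13.06 and then 8.71 and 8.71 in run 1, against the -0.22 of run 2, so that the changes differed by 4.09 ± 0.192 (SE without the block, adjusted p = 0.000388). Its 6 h level was alike in the runs, and its 24 h level was not. Tnf read 10.59 and 10.66 and then 7.61 and 7.43 in run 1, a difference of 3.17 between the changes (adjusted p = 0.00397). Il1rn went from 10.34 and 10.52 to 6.80 and 7.17 in run 1 and was 1.03 higher in run 2 (difference 4.47, adjusted p = 0.00756). Gpr84, a receptor for medium-chain fatty acids, went from 10.61 and 10.85 to 7.22 and 6.87 in run 1 and from 8.89 and 8.73 to 9.70 and 9.04 in run 2 (4.24, adjusted p = 0.00439). Mmp13, a collagenase, fell by 4.63 in run 1 and differed by -0.78 in run 2, from 12.11 and 11.21 to 11.55 and 10.21 (3.85, adjusted p = 0.0282). All of these 24 h levels lay below the 6 h levels in run 1 with no overlap.

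On the other side stood genes that rose in run 1 and not in run 2. St8sia4, which adds chains of sialic acid to proteins, went from 6.44 and 5.88 to 9.58 and 9.08 in run 1 and from 3.53 and 3.99 to 2.65 and 3.24 in run 2 (difference -3.98, adjusted p = 0.00756). St6gal1, another sialyltransferase, went from 6.66 and 7.12 to 9.79 and 10.06 in run 1 and from 5.86 and 6.75 to 5.36 and 5.82 in run 2 (-3.75, adjusted p = 0.0113). St8sia4 read below the array median on each run 2 array. Gpr34, a lysophosphatidylserine receptor of resting microglia, went from 2.53 and 2.85 to 6.21 and 5.94 in run 1 and read 2.81 and 2.62 and then 2.92 and 2.70 in run 2. Dkk2, which modulates Wnt receptors, went from 2.98 and 3.33 to 6.54 and 6.01 in run 1 and read 2.67 and 2.83 and then 2.90 and 2.71 in run 2. These last genes passed the filter on dim probe sets only through the 24 h arrays of run 1 and lay below the array medians elsewhere, so they had to differ and are given as levels. The same holds, for some 1 group, of 9 of the 251 genes, and of 0 of the 40.

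**Figure D5:**
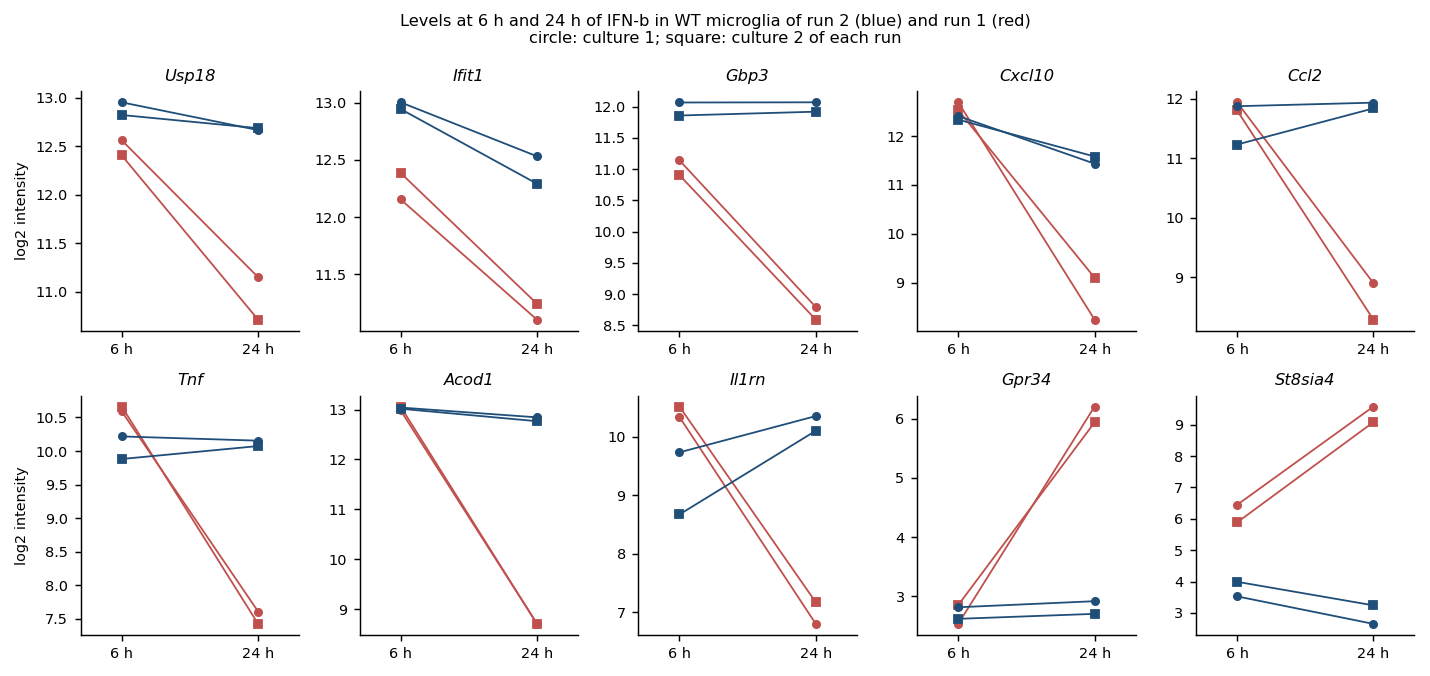
Expression (log2, vertical axis) on each 6 h and 24 h array of run 1 and run 2 for 10 genes, 1 panel a gene, run 2 in blue and run 1 in red, circles for replicate 1 and squares for replicate 2. Acod1 reads between 12.77 and 13.04 on all 4 run 2 arrays and 8.71 on both 24 h arrays of run 1.

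By group, 8 of 16 chemokine genes had the higher change in run 2 and 0 the lower, as had 7 of 14 inflammatory genes and 3 of 9 interferon-inducible GTPases, against 2.11% of all genes. Ccl2 fell by 3.28 in run 1 and was 0.33 higher in run 2 (difference 3.62, adjusted p = 0.00756), Ccl7 fell by 3.60 against 0.03 higher (3.63, adjusted p = 0.0127), and Cxcl10 fell by 3.95 against -0.87 (3.08, adjusted p = 0.0115). Among GTPases Gbp3 fell by 2.33 in run 1 against 0.03 (2.36, adjusted p = 0.00756) and Gbp2 fell by 2.47 against -0.33 (2.15, adjusted p = 0.0159). Of 22 antiviral genes 2 passed, Isg20 (1.52, adjusted p = 0.0197) and Cmpk2 (1.18, adjusted p = 0.0351), and of 12 class I and 20 lysosome genes 0 did. Usp18, at 12.56 and 12.41 and then 11.15 and 10.71, fell by 1.56 ± 0.182 in run 1 (SE and adjusted p without the block, adjusted p = 0.00221). Its change differed from that of run 2 by 1.34 ± 0.257 (also without the block, adjusted p = 0.0386), a call that held in 9 of 20 alternative settings. Its 24 h arrays were the lower in both runs, by more in run 1.

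The 40 genes of run 2 were set beside run 1 in the blocked fit. There 31.9% of all genes passed, and of the 40, 24 passed in the same direction and 4 in the opposite one (Clec4e, Hspa1a, Il1b and Ptges). For 12 of the 40 the change differed between the runs, against 11% of all genes. In that fit the runs share a gene's estimate of spread, and the run 2 change is part of the difference between runs. The 40 were chosen on both, so these counts are not independent of that choice. Among the 24 of the same direction Lhx2 went from 7.41 and 7.50 to 3.23 and 3.43 in run 1, Cd86 from 10.56 and 10.64 to 8.43 and 8.76, and Arid5a from 7.66 and 8.19 to 5.47 and 5.93. Usp12 fell by 1.10 in both. Clec4e, by contrast, went from 9.66 and 10.19 to 7.59 and 7.67 in run 1, a difference of 3.56 between the changes (adjusted p = 0.00756 without the block), and Il1b from 8.78 and 8.33 to 7.60 and 6.99 (2.98, adjusted p = 0.0247). Slfn4 read 9.14 and 8.36 and then 9.26 and 8.45 in run 1, a change of 0.11 against the 2.45 of run 2 (difference 2.34, adjusted p = 0.0493), a call that held in 7 of 20 alternative settings.

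Genes that run 1 itself had marked as interferon-responsive were then followed in run 2. Of the genes raised at 6 h against untreated in run 1 by at least 1 log2 unit, 632 were tested. Their median change in run 2 was -0.09 against 0.02 for all genes, 102 (16.1%) were higher and 225 (35.6%) lower without overlap, against 24.2% and 18.4% of all genes. In the blocked fit 10 of them rose and 10 fell, against 0.297% and 0.243% of all genes. Of the genes lowered at 6 h in run 1, 543 were tested, with a median of 0.07, 151 (27.8%) higher and 77 (14.2%) lower without overlap, and 2 rose and 2 fell. With no minimum size, the medians were -0.06 over 1038 raised genes and 0.06 over 1557 lowered genes.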

How the data were processed

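Total RNA of 36 samples had been labelled with biotin and hybridised to Affymetrix expression arrays of 22690 probe sets. Per the submitters' processing notes the package affy was used, with no version named, and no source used here states the background correction or normalization. The authors' deposited values were taken as log2 from their range and used with no further normalization. Probe sets were named from the platform's annotation: 20393 had 1 gene, 691 several and 1606 none listed. A probe set was kept when it exceeded the array median on 2 or more of the 8 IFN-treated WT arrays, and a gene was read by its brightest kept probe set, leaving 7408 of 12394 genes. Of 285 genes of the lists and the text, 98 had a further kept probe set, and for 25 such a probe set had the opposite sign, among them Aqp4, Mcm3, Mcm4, Rsad2, Trim25, Uba7 and, of the 40 genes called with the block, Pacc1.

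The 8 arrays were fitted with limma 3.58.1 in R 4.3.3 as 4 groups (time by run), with Benjamini-Hochberg adjustment over all genes tested. The contrasts were 24 h minus 6 h in each run and the difference between the runs. The same fit was made with culture (run and replicate number) as a fixed block. The pairing comes from the data: same-numbered arrays deviated together in both runs, at correlations of 0.513 and 0.667 over genes, and in run 1 the sex-linked transcript Xist split by number at both times (10.27 and 10.66 against 5.11 and 5.41). In run 2 Xist did not split by number. It read 8.55 at 6 h and 10.11 at 24 h in replicate 1, and 9.11 and 9.53 in replicate 2. The fits were tested on simulated data. The number of arrays limits the precision: 4 residual degrees of freedom without the block and 2 with it, before moderation.

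The members, the gene lists and the markers were chosen with earlier results of these data known. The 27 lists hold 335 genes, of which 291 are on the array and 250 were tested; they are described by counts and medians, with no test of a list. Genes named were, in each direction, up to 12 past the threshold without the block (0 passed), the 6 of smallest unadjusted p, up to 4 called and the first 3 measured members of each list, Usp18, and up to 4 of the largest differences between the runs; any other gene was chosen after its values were seen. Lists of genes raised or lowered at 6 h in run 1 came from a fit of the 6 WT arrays of run 1 with adjusted p under 0.05. Alternatives covered the arrays in the fit, normalization, filter, probe set rule, moderation, blocks, run as a term and each array left out. Promoters came from a RefSeq table of GRCm38.p6 and were searched with Python 3.11.15.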

Additional observations from a re-analysis of the deposited data

Results flagged for a closer look

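The results here are those whose change from 6 h to 24 h differed between run 2 and run 1 in the limma fit without the block, each given as the change of run 2 minus that of run 1 in log2 units with its adjusted p. Over all genes tested there were 251. No group holds 4 or more arrays, so no single array was tested for lying apart.

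The differences above 0 that were largest belonged to Il1rn (4.47, adjusted p 0.00756), Gpr84 (4.24, 0.00439), Acod1 (4.09, 0.000388) and Mmp13 (3.85, 0.0282). Chemokines followed with Ccl7 (3.63, 0.0127), Ccl2 (3.62, 0.00756), Cxcl2 (3.18, 0.0150), Cxcl10 (3.08, 0.0115), Ccl3 (1.63, 0.0208) and Cxcl16 (1.24, 0.0344). Of the inflammatory genes, Clec4e stood at 3.56 (0.00756), the co-stimulatory receptor gene Cd40 at 3.20 (0.0158), Tnf at 3.17 (0.00397), Il1b at 2.98 (0.0247) and Ptges at 2.21 (0.0254). The chaperone gene Hspa1a stood at 2.44 (0.0180) and the feedback inhibitor Socs3 at 2.00 (0.0113).

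Among interferon-stimulated genes the differences were 2.36 for Gbp3 (0.00756), 2.34 for Slfn4 (0.0493), 2.15 for Gbp2 (0.0159), 1.66 for Gbp7 (0.0158), 1.52 for Isg20 (0.0197), 1.34 for Usp18 (0.0386) and 1.18 for Cmpk2 (0.0351). Spn stood at 1.23 (0.0344). Below 0 lay St8sia4 at -3.98 (0.00756), St6gal1 at -3.75 (0.0113), and, listed here for completeness, Gpr34 at -3.29 (0.00439) and Dkk2 at -3.06 (0.00756). The last pair passed the filter on dim probe sets only through the 24 h arrays of run 1 and read below the array medians elsewhere. They therefore had to differ, and their differences and adjusted p are not read as a result.

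These calls were not equally firm. Tnf, Il1rn, Acod1 and Gpr84 passed in 20 of 20 alternatives and St8sia4 in 19 of 19 that gave a value. Spn passed in 7 of 19, Slfn4 in 7 of 20, and Usp18 and Cmpk2 in 9 of 20.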

How the results depend on the processing

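Without a block 0 genes passed in run 2 under each alternative to the arrays in the fit, normalization, filter, probe set rule and moderation, and with each array left out. Culture as a replicate block gave 40 in run 2, 2362 in run 1 and 813 for the difference between runs, and as a random block 38, 2414 and 842, against 0, 1509 and 251 without it. With 16 IFN-treated microglia arrays run 1 gave 832 and the difference 54, with 24 microglia arrays 842 and 72, and leaving out 1 array gave 546 to 1453 and 32 to 190. The 40 genes became 0 with 16 treated arrays in the blocked fit, 4 with the C61A 6 h array of replicate 2 left out of that fit, 195 with the 4 run 2 arrays alone, 162 with arrays centred on their medians, 92 with trend and robust moderation and 65 with probe sets averaged. All 40 kept their direction in these. Where only the other arrays or the moderation differed, a gene's change came from the same 4 run 2 arrays. Its direction was then fixed beforehand and is no sign of firmness. Only centring the arrays and averaging probe sets could have turned it. Slfn4, Lhx2, Arid5a and Cd86 passed in 8 of 9 alternative settings of the blocked fit. The cause of these shifts in the number of genes was not tested. Run as an additive term, which averages both runs, gave 209 genes and turned Ptges (-0.13), Clec4e (-0.52), Isg20 (-0.45), Gbp3 (-1.15), Cxcl2 (-0.61), Cxcl16 (-0.11), Ccl2 (-1.47), Ccl3 (-0.58), Ccl7 (-1.78), Tnf (-1.52), Il1rn (-1.21), Gpr84 (-1.56), St8sia4 (1.18) and St6gal1 (1.15), since the runs move these apart. Leaving out 1 array took changes near 0 to either side: Gbp3 -0.072 to 0.14, Ccl7 -0.27 to 0.34, Tnf -0.10 to 0.23, Socs3 -0.12 to 0.091, Gpr34 -0.014 to 0.20, Dkk2 -0.041 to 0.15 and Irf7 -0.085 to 0.42 in run 2, and Slfn4 -0.30 to 0.51 and Spn -0.00018 to 0.26 in run 1. With 2 arrays a side, a p that misses the threshold does not show that a gene stayed the same.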

Other observations

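Gene groups that the comparison above leaves out had medians between -0.26 and 0.17 in run 2, and 0 of their members passed in the blocked fit. Of 14 stress response genes, 6 (42.9%) were higher and 1 (7.14%) lower at 24 h without overlap, against 24.2% and 18.4% of all genes. Their median was 0.17. Ddit3, the factor CHOP of the unfolded protein response, read 8.81 and 8.84 at 6 h and 9.53 and 9.68 at 24 h (0.78, adjusted p = 0.0933 in limma), and the growth arrest gene Gadd45a 6.73 and 6.54 and then 7.78 and 7.33 (0.92, adjusted p = 0.0933). Of 14 genes of cholesterol synthesis and handling the median was -0.26, and 0 were higher and 1 (7.14%) lower without overlap. Idi1, an enzyme of isoprenoid synthesis, read 6.98 and 8.34 and then 6.36 and 7.07 (-0.95, adjusted p = 0.0707), lower in each culture. Of 9 genes of caspases and cell death the median was 0.13, and of 11 immediate early factors -0.05, with Fos at 9.89 and 9.63 and then 9.72 and 9.63.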
